A study of Mus musculus with 16 samples.

Results

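Photoreceptors under stress signal to the glia around them, and 9 genes of that exchange were followed here in ageing mouse rods. They are Edn2, its receptor Ednrb, the cytokine receptor chains Lifr and Il6st, the kinase Jak1, the transcription factor Stat3, its feedback inhibitor Socs3, the growth factor Fgf2 and the glial filament gene Gfap. They were picked by symbol, 9 of 45594 genes in the deposited gene table, and the choice was made with results of these ages known. Their levels across age are therefore given as a description, and the calls printed for them, from a fit across all genes, are not used as support. The rods came from C57BL/6J (Nrlp-GFP) mice, whose GFP reporter is under the Nrl promoter, active in rods, and GFP-positive cells were collected by flow sorting. All 4 groups share this strain and reporter, and age is the only difference between them that the labels give. There are 4 libraries for each age, 3 months (3M), 12 months (12M), 18 months (18M) and 24 months (24M). The design text calls the libraries of an age biological replicates, but the labels do not say whether each came from 1 mouse or a pool, so p-values measure the spread between these libraries.

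The 16 libraries held 20579144 to 28791777 estimated counts each. Levels are in CPM, counts set to a common library total with the TMM factors of edgeR. Rod markers summed to 37194 ± 4591 CPM at 24M and 43753 ± 1984 CPM at 3M (14 genes, SD, n = 4), far above the summed markers of any of the 7 other cell types examined. The authors' normalized table leaves out 3 libraries: replicate 4 of 12M, replicate 3 of 18M and replicate 3 of 24M. Their slopes of log2 expression, less the mean over libraries, on log2 transcript length were -0.0473, 0.0839 and -0.0814, each the farthest from 0 within its age or, at 12M, the single negative slope. Values of the set in which these libraries stand apart are given with and without them.

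Endothelin-2 is a secreted vasoactive peptide made by stressed photoreceptors, and its receptor EDNRB sits on Müller glia, the support cells that span the retina. Müller glia answer injury by releasing the cytokine LIF, which binds LIFR together with gp130, the product of Il6st. The pair activates the kinase JAK1, which phosphorylates STAT3, and STAT3 then enters the nucleus and turns on genes that include Socs3, whose product shuts the receptor complex down. FGF2 is a survival factor for photoreceptors that is induced by retinal injury. GFAP is an intermediate filament of astrocytes, and in Müller glia it is the usual marker of a reactive state.

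Promoters of all 9 genes were found in the RefSeq table of build GRCm38.p6, in windows of 250 bases before to 50 after the gene start, with 10 windows in all since Lifr has a second start. They were searched for the STAT core motif, TTC and GAA spaced by 3 bases of any kind, which reads the same on both strands. It occurred in the windows of Gfap and Socs3 and in none of the others, against 8.3% of the 32851 promoters in the table. The windows of Edn2, Stat3 and Jak1 are shown beside the 2 with a match, 5′ to 3′ on the strand of the gene, with the match in capitals. In the CPM used here, these 3 are the genes whose 24M libraries all lay above the 3M libraries.
Edn2: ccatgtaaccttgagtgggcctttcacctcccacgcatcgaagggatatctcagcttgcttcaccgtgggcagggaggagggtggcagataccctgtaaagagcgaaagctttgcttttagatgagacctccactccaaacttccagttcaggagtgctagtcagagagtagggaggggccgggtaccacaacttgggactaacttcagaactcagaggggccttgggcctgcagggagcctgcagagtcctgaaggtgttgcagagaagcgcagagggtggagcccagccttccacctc
Stat3: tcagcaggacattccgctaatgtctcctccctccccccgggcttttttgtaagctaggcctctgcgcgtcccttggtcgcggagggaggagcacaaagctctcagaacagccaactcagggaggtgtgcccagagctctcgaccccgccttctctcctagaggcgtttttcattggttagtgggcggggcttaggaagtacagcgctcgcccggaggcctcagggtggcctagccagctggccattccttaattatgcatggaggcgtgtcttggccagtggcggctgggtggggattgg
Jak1: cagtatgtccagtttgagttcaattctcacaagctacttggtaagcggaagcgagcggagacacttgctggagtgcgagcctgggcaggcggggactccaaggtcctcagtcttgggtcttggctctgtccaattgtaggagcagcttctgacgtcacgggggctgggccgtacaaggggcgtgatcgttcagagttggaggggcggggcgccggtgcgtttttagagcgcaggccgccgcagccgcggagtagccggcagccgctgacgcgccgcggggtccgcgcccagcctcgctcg
Socs3: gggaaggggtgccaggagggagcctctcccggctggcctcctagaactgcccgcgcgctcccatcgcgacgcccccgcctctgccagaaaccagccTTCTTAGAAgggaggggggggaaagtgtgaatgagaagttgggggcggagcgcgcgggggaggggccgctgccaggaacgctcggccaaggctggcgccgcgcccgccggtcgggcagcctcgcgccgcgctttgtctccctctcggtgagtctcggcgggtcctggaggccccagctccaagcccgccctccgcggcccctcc
Gfap: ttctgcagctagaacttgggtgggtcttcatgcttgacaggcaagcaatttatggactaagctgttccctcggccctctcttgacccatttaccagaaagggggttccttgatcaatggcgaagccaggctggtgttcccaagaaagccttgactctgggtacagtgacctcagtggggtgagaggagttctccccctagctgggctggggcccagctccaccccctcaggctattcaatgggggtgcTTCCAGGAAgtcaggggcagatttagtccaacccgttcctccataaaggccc
The window of Edn2 is chr4:120160956-120161255 (plus strand), that of Stat3 chr11:100939491-100939790 (minus), that of Jak1 chr4:101265174-101265473 (minus), that of Socs3 chr11:117969317-117969616 (minus) and that of Gfap chr11:102897151-102897450 (minus). The match began at position -154 from the gene start in Socs3 and at -2 in Gfap. A match describes these letters, and says nothing of binding in rods.

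The 9 genes spanned a wide range of levels. Set per length of transcript, as TPM computed from the estimated counts, the mean over the 16 libraries was highest for Jak1 (26.5 TPM), followed by Lifr (19.3), Stat3 (11.1), Il6st (6.58), Fgf2 (3.21), Edn2 (2.32), Gfap (0.341), Ednrb (0.227) and Socs3 (0.142). Each of the first 4 exceeded the next gene in all 16 libraries. Fgf2 exceeded Edn2 in 13 of 16 libraries, Gfap exceeded Ednrb in 13 and Ednrb exceeded Socs3 in 12, so these neighbours are not separated beyond their spread. The order of Fgf2 and Edn2 differed with age: Edn2 was the higher of the pair in 3 of 4 libraries at 24M and in 0 of 4 at each of the other ages. Ednrb, Socs3 and Gfap reached 5 CPM in 0 libraries and stayed out of the fit across all genes, whose filter asked for 5 CPM or more in 4 or more libraries and left 6 of the 9.

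**Figure D1:**
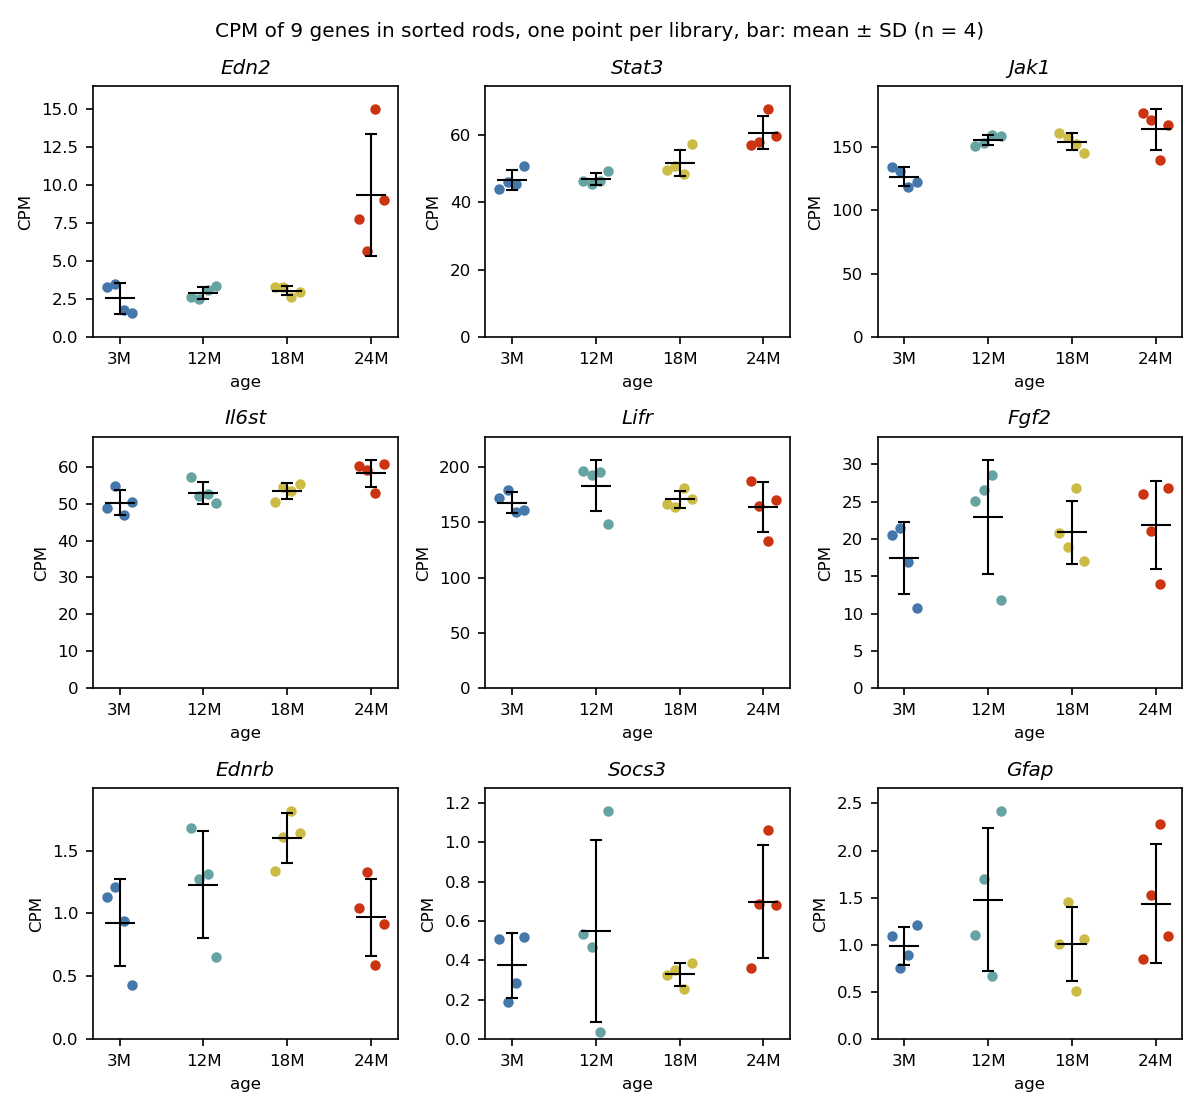
CPM of the 9 genes (vertical axes, linear, from 0) at 3M, 12M, 18M and 24M, with 1 point per library and bars for the mean ± SD of 4 libraries. The 4 Edn2 points at 24M lie between 5.66 and 15.01 CPM, above all 12 points of the other ages, while the Ednrb, Socs3 and Gfap panels do not pass 2.42 CPM.

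Edn2 (ENSMUSG00000028635, chromosome 4, 120161206 to 120167360, plus strand, GRCm38) encodes the endothelin-2 ligand and has 1 annotated transcript, of 1462 bases in 5 exons. It stood at 3.32, 3.51, 1.75 and 1.60 CPM in the 4 libraries at 3M, at 2.62, 2.51, 3.11 and 3.33 CPM at 12M, at 3.28, 3.31, 2.66 and 2.94 CPM at 18M, and at 7.76, 5.66, 15.01 and 9.05 CPM at 24M. The first 3 ages overlapped one another, and every 24M library lay above all libraries of the other ages. The mean was 9.37 ± 4.01 CPM at 24M and 2.54 ± 1.01 CPM at 3M (SD, n = 4 each), from 956 and 264 estimated counts summed over the 4 libraries. The log2 fold change over 3M in the fit across all genes was 0.18 ± 0.30 (SE) at 12M, 0.25 ± 0.30 at 18M and 1.87 ± 0.29 at 24M, the last a 3.67-fold difference. Edn2 passed the filter on low values through its 4 libraries at 24M alone, so its place among the tested genes follows from the age at which it is high. 24M replicate 3 held the top value, and without it the 24M mean was 7.49 ± 1.71 CPM (SD, n = 3) and the log2 fold change 1.55. In bulk samples, more or fewer cells holding a transcript and more or less of it in each cell cannot be told apart.

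Ednrb (ENSMUSG00000022122, chromosome 14, 103814625 to 103844402, minus strand), the endothelin receptor, was low at every age. It had 1.13, 1.21, 0.937 and 0.432 CPM at 3M, 1.68, 1.28, 1.31 and 0.656 CPM at 12M, 1.34, 1.61, 1.82 and 1.64 CPM at 18M, and 1.05, 1.33, 0.590 and 0.919 CPM at 24M. The 18M libraries lay above all 3M libraries, and those of 12M and 24M overlapped 3M. Without 12M replicate 4 the 12M mean was 1.42 ± 0.223 CPM, with all 3 libraries above those of 3M, and without 18M replicate 3 the 18M mean was 1.53 ± 0.165 CPM (SD, n = 3 each). Ednrb averaged 0.971 ± 0.307 CPM at 24M and 0.927 ± 0.349 CPM at 3M (SD, n = 4 each), a ratio of 1.05, from 95 and 96 counts. Of the other endothelin genes, none of 5 passed the filter. The converting enzyme Ece1, which cuts the precursor to the active peptide, had 4.42 ± 0.927 CPM at 24M and 3.79 ± 1.13 CPM at 3M, and its relative Ece2 had 1.85 ± 0.0425 CPM at 24M and 1.60 ± 0.310 CPM at 3M (SD, n = 4 each).

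Lifr and Il6st encode the receptor chains that bind LIF. Lifr (ENSMUSG00000054263, chromosome 15, 7090614 to 7197489, plus strand) had 172, 179, 160 and 161 CPM at 3M, 196, 193, 196 and 148 CPM at 12M, 167, 164, 181 and 171 CPM at 18M, and 187, 165, 133 and 170 CPM at 24M. The ages overlapped, and the lowest values at 12M and at 24M were those of 12M replicate 4 and 24M replicate 3. Its log2 fold change at 24M over 3M was -0.04 ± 0.11 (SE), and 0.05 without 24M replicate 3. At 12M over 3M it was 0.13 ± 0.11 (SE), and 0.22 without 12M replicate 4, where the 3 remaining libraries averaged 195 ± 1.55 CPM (SD, n = 3) and lay above all 3M libraries. Without 18M replicate 3 the 18M mean was 167 ± 3.84 CPM (SD, n = 3), within the 3M range. Il6st (ENSMUSG00000021756, chromosome 13, 112464070 to 112510086, plus strand) had 48.9, 54.9, 47.0 and 50.4 CPM at 3M, 57.1, 52.0, 52.5 and 50.2 CPM at 12M, 50.5, 54.5, 53.5 and 55.2 CPM at 18M, and 60.3, 59.1, 52.8 and 60.7 CPM at 24M. Il6st at 24M exceeded all 3M libraries in 3 of 4 libraries, and 24M replicate 3 lay within the 3M range. The mean was 58.2 ± 3.67 CPM at 24M and 50.3 ± 3.36 CPM at 3M (SD, n = 4 each), with a log2 fold change of 0.21 ± 0.07 (SE). Without 24M replicate 3 the 24M mean was 60.03 ± 0.845 CPM (SD, n = 3) and the log2 fold change 0.26.

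Jak1 (ENSMUSG00000028530, chromosome 4, 101152367 to 101265282, minus strand), the kinase that gp130 uses, stood above 3M in every library of the later ages. It had 134, 131, 118 and 122 CPM at 3M, 151, 153, 159 and 159 CPM at 12M, 160, 158, 152 and 145 CPM at 18M, and 176, 171, 140 and 167 CPM at 24M. The 3M libraries reached at most 134 CPM and the later libraries at least 140 CPM. The log2 fold change over 3M was 0.30 ± 0.08 (SE) at 12M, 0.29 ± 0.08 at 18M and 0.37 ± 0.08 at 24M. Means were 164 ± 16.3 CPM at 24M and 126 ± 7.37 CPM at 3M (SD, n = 4 each). 24M replicate 3 was the lowest of its age, and the log2 fold change at 24M was 0.44 without it. Jak1 overlaps small parts of 3 other genes, of which Raver2, on the opposite strand over 4 bases, was the highest with a mean of 86.9 counts a library.

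Stat3 (ENSMUSG00000004040, chromosome 11, 100885098 to 100939540, minus strand), the transcription factor that the kinase activates, had 44.0, 46.2, 45.5 and 50.8 CPM at 3M, 46.5, 45.6, 46.4 and 49.4 CPM at 12M, 49.7, 50.9, 48.5 and 57.2 CPM at 18M, and 57.0, 58.0, 67.8 and 59.8 CPM at 24M. The 12M libraries lay within the 3M range, 2 of 4 libraries at 18M lay above it, and all 4 at 24M lay above it. On the authors' gene CPM, Stat3 had 46.6 CPM in 24M replicate 2 and 47.6 CPM in 3M replicate 4, so there the 2 ages overlapped. The log2 fold change over 3M was 0.01 ± 0.08 (SE) at 12M, 0.15 ± 0.08 at 18M and 0.38 ± 0.08 at 24M, the last a 1.30-fold difference. Means were 60.7 ± 4.91 CPM at 24M and 46.6 ± 2.95 CPM at 3M (SD, n = 4 each). As with Edn2, 24M replicate 3 was the highest of its age, and without it the 24M mean was 58.3 ± 1.42 CPM (SD, n = 3) and the log2 fold change 0.32. Stat3 shares 72 bases with Stat5a on the opposite strand, which had a mean of 73.1 counts a library.

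Socs3 (ENSMUSG00000053113, chromosome 11, 117966079 to 117970047, minus strand), the STAT3-induced inhibitor, was near the limit of detection. It had 0.511, 0.189, 0.285 and 0.519 CPM at 3M, 0.532, 0.468, 0.037 and 1.16 CPM at 12M, 0.324, 0.351, 0.253 and 0.385 CPM at 18M, and 0.362, 0.689, 1.06 and 0.680 CPM at 24M. In 3 of 4 libraries at 24M it stood above all 3M libraries, and the fourth overlapped them. Counts summed to 70 at 24M and 38 at 3M. The value of 12M replicate 3 rests on 1 count, with an exact Clopper-Pearson 95% interval of 0.001 to 0.211 CPM that covers counting error only. Without 24M replicate 3 the 24M mean was 0.577 ± 0.187 CPM (SD, n = 3), against 0.376 ± 0.165 CPM at 3M (SD, n = 4), and without 12M replicate 4 the 12M mean was 0.346 ± 0.269 CPM (SD, n = 3).

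At 24M against 3M, 3 of the 6 tested genes of the set, Edn2, Stat3 and Jak1, were called by edgeR's quasi-likelihood test at an adjusted p under 0.05, all of them higher, beside 4.25% of the 12177 genes tested in either direction and 2.65% in the higher direction. Since results of these ages chose the set, nothing is read from that count. Stat3 was not called on the authors' gene CPM, with no filter or with only the 2 ages fitted, nor was Jak1 in that last fit. At an unadjusted p under 0.05 the test gave 4 of the 6 at 24M, Edn2, Stat3, Jak1 and Il6st, all higher, beside 7.31% of all genes tested in the higher direction. At 18M and at 12M edgeR called 0 of the 6 in the fit of 16 libraries, beside 2.64% of all genes tested at 18M (1.68% higher and 0.961% lower) and 1.39% at 12M (0.977% higher and 0.411% lower). At an unadjusted p under 0.05 the test gave 1 of the 6 at each of those ages, Jak1, beside 6.58% of all genes tested in the higher direction at 18M and 4.75% at 12M. DESeq2 called Jak1 at both ages, beside 2.71% of all genes tested in the higher direction at 18M and 1.76% at 12M. Jak1 was also called by edgeR at both ages without 24M replicate 3, beside 440 of the 12177 genes tested at 18M and 208 at 12M. In the 13 libraries that the authors normalized, edgeR called Jak1 at both ages, and Lifr and Fgf2 at 12M. That fit called 724 of the 12177 genes at 18M and 4652 at 12M, so nothing is read from these calls. The libraries did not overlap with 3M for 1 of the 9 genes at 12M, 2 at 18M and 3 at 24M, beside 5.09%, 13.7% and 10.6% of the tested genes. These were Jak1 at 12M, Jak1 and Ednrb at 18M, and Edn2, Stat3 and Jak1 at 24M. Ednrb was below the filter, so the share of tested genes does not cover it. The authors' deposited table of comparisons, which holds the same 6 genes, gives log2 differences from 3M at 12M, 18M and 24M of 0.18, 0.39 and 1.62 for Edn2. For Jak1 the authors' deposited table gives 0.17, 0.16 and 0.55, and for Stat3 0.15, 0.27 and 0.29. For Fgf2 the authors' deposited table gives 0.69, 0.35 and 0.30, for Il6st 0.20, 0.05 and 0.33, and for Lifr 0.18, 0.03 and 0.11. The adjusted p of an F statistic in the authors' deposited table is 0.000305 for Jak1, 0.00142 for Edn2, 0.0362 for Fgf2, 0.0611 for Stat3, 0.0792 for Il6st and 0.115 for Lifr, and it does not say which age differs. That table places most of the Jak1 difference at 24M, whereas the sums of transcript counts used here place much of it at 12M. The authors' way of summing transcripts to genes is not stated in the labels. Nor do the labels say whether their comparisons used all 16 libraries or the 13 of the normalized table, so the sets of libraries may differ. For Edn2 at 24M the fit here gave 1.87 in the 16 libraries and 1.55 in the 13.

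**Figure D2:**
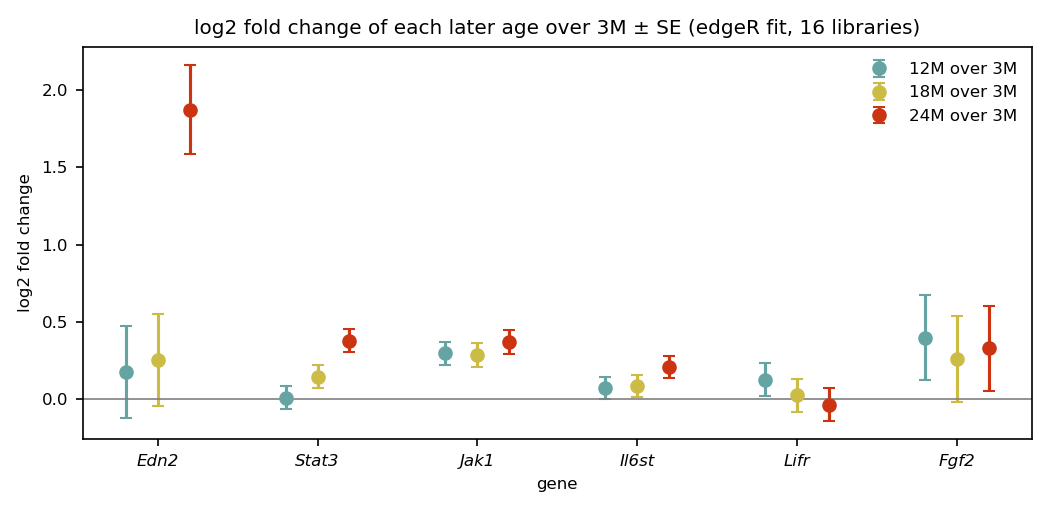
Log2 fold change (vertical axis) of 12M, 18M and 24M over 3M for the 6 genes of the set that passed the filter, with bars for the SE from the edgeR fit of 16 libraries. Edn2 stands at 1.87 at 24M and near 0 earlier, Jak1 lies between 0.29 and 0.37 at all 3 ages, and Lifr lies between -0.04 and 0.13.

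The transcripts within a gene were not used to choose the set, so their shares of a gene's estimated counts were tested at 24M against 3M. Of 15 transcripts of 7 genes, with a mean share of at least 10% in either age, 0 passed after Benjamini-Hochberg adjustment of a two-sided exact permutation test, and 1 had a raw p under 0.05. That transcript was Stat3-203, protein-coding, of 4516 bases in 24 exons. It held 23.7%, 22.1%, 22.8% and 17.0% of Stat3 counts at 24M and 16.3%, 13.8%, 9.85% and 14.3% at 3M, and the libraries of the 2 ages did not overlap. The mean share at 24M was 21.4% ± 3.02, against 13.6% ± 2.69 at 3M (SD, n = 4 each), a difference of 7.84 percentage points (exact permutation p = 0.0286, the smallest that 4 against 4 allows, adjusted p = 0.333). At 12M the share was 9.28% to 18.4% and at 18M 9.35% to 21.2%, so both ages overlapped 24M. Stat3-202, of 6042 bases, held 24.6% ± 4.18 at 24M and 29.1% ± 2.01 at 3M (SD, n = 4 each; exact permutation p = 0.0857, adjusted p = 0.333). Lifr-203, of 9655 bases, held 47.4% ± 2.15 at 24M and 53.2% ± 4.44 at 3M (SD, n = 4 each; exact permutation p = 0.0857, adjusted p = 0.333). Jak1-201 held 83.2% ± 0.526 of Jak1 counts at 24M and 84.7% ± 1.45 at 3M (SD, n = 4 each; exact permutation p = 0.143, adjusted p = 0.333). kallisto, named in the submitters' processing notes, divides reads among transcripts that share exons, so such shares are estimates. With 15 transcripts and a smallest p of 0.0286, none could pass adjustment unless several stood at that p together. Ednrb-201, 1 of the 15, held 100% in every library of both ages. The count of 0 was thus nearly fixed by the design, and nothing is concluded from it.

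Fgf2 (ENSMUSG00000037225, chromosome 3, 37348346 to 37410108, plus strand), the survival factor, had 20.6, 21.5, 16.9 and 10.8 CPM at 3M, 25.1, 26.5, 28.6 and 11.8 CPM at 12M, 20.8, 18.9, 26.8 and 17.1 CPM at 18M, and 26.0, 21.02, 13.95 and 26.8 CPM at 24M. All later ages overlapped 3M, and the lowest values of 12M and 24M came again from 12M replicate 4 and 24M replicate 3. The log2 fold change over 3M was 0.40 ± 0.28 (SE) at 12M, 0.26 ± 0.28 at 18M and 0.33 ± 0.28 at 24M. Without 24M replicate 3 the 24M mean was 24.6 ± 3.13 CPM (SD, n = 3), against 17.4 ± 4.87 CPM at 3M (SD, n = 4). Without 12M replicate 4 the 12M mean was 26.7 ± 1.73 CPM (SD, n = 3), with all 3 libraries above those of 3M and a log2 fold change of 0.61. Without 18M replicate 3 the 18M mean was 18.9 ± 1.87 CPM (SD, n = 3) and the log2 fold change 0.12. Fgf2 overlaps Nudt6 over 5199 bases and Fgf2os over 1395 bases, both on the opposite strand, with means of 80.6 and 245 counts a library, against 450 counts of Fgf2 at 3M. Counted over exons alone, Fgf2 shares 640 of its 6782 bases with Nudt6 and 0 with Fgf2os in GENCODE M21. The strand setting of the counting is not given, so reads from the bases shared with Nudt6 cannot be told apart.

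Gfap (ENSMUSG00000020932, chromosome 11, 102887336 to 102900912, minus strand) had 1.09, 0.754, 0.896 and 1.21 CPM at 3M, 1.10, 1.70, 0.674 and 2.42 CPM at 12M, 1.01, 1.46, 0.507 and 1.06 CPM at 18M, and 0.845, 1.53, 2.28 and 1.09 CPM at 24M. The ages overlapped, and the highest values came from 12M replicate 4 and 24M replicate 3. Gfap averaged 1.44 ± 0.630 CPM at 24M and 0.989 ± 0.203 CPM at 3M (SD, n = 4 each), and 1.15 ± 0.345 CPM at 24M without replicate 3 (SD, n = 3). Without 12M replicate 4 the 12M mean was 1.16 ± 0.517 CPM, and without 18M replicate 3 the 18M mean was 1.18 ± 0.243 CPM (SD, n = 3 each). A long noncoding gene, Gm26668, covers all of Gfap on the opposite strand, over 13577 bases, with a mean of 405 counts a library against 35.5 for Gfap at 24M. Their exons share 0 of the 4218 exonic bases of Gfap in GENCODE M21. Of 16 other genes of reactive glia, 2 passed the filter, and edgeR called 0 of them at any age, with 0 at an unadjusted p under 0.05. The plasma copper carrier Cp had 14.5 ± 2.98 CPM at 24M and 13.6 ± 3.36 CPM at 3M, and the filament gene Vim had 6.92 ± 2.05 CPM at 24M and 5.27 ± 1.85 CPM at 3M (SD, n = 4 each).

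Because Gfap, Ednrb and much of the LIF response belong to Müller glia, the level of glial transcripts in the sorted rods was set beside them. 16 Müller glia markers summed to 285 to 408 CPM at 24M and 206 to 347 CPM at 3M, with means of 359 ± 55.1 and 261 ± 61.3 CPM (SD, n = 4 each; two-sided exact permutation p = 0.0571, adjusted p = 0.114 over 8 lists). Of these markers 11 passed the filter and 1, Car2, was called higher at 24M by edgeR (adjusted p = 0.00159), beside 2.65% of all genes tested. Car2 was also called higher by edgeR at 18M (adjusted p = 0.02396) and at 12M (adjusted p = 0.02495), beside 1.68% and 0.977% of all genes tested. Glul, the glutamine synthetase of Müller glia, had 115 ± 24.4 CPM at 24M and 85.1 ± 22.5 CPM at 3M (SD, n = 4 each). The sum was highest in 12M replicate 4, at 585 CPM, which was also the library with the highest Gfap and Socs3. Ednrb, by contrast, was at its lowest among the 12M libraries there, at 0.656 CPM. Microglia markers summed to 17.0 ± 1.13 CPM at 24M and 14.98 ± 0.679 CPM at 3M (12 genes, SD, n = 4 each; exact permutation p = 0.0286, adjusted p = 0.114). Of these markers Tmem119 had a mean of 0.0123 CPM at 24M and 0 CPM at 3M. Astrocyte markers summed to 269 ± 49.2 CPM at 24M and 313 ± 13.5 CPM at 3M (8 genes, SD, n = 4 each; exact permutation p = 0.0571, adjusted p = 0.114), and most of that sum is Slc1a2. Endothelial and pericyte markers summed to 60.4 ± 5.25 CPM at 24M and 52.5 ± 8.78 CPM at 3M (12 genes, exact permutation p = 0.171, adjusted p = 0.274, n = 4 each). Cone markers summed to 101 ± 11.5 CPM at 24M and 83.2 ± 23.2 CPM at 3M, bipolar cell markers to 408 ± 24.7 and 409 ± 21.3 CPM, and pigment epithelium markers to 3.45 ± 0.559 and 4.07 ± 0.949 CPM (SD, n = 4 each). Most of the cone difference is Gnb3, with 31.9 ± 7.63 CPM at 24M and 16.3 ± 1.34 CPM at 3M (SD, n = 4 each). Opn1sw, Opn1mw, Gngt2 and Cngb3 had lower means at 24M, and the other cone markers slightly higher ones. The exact permutation test called 0 of the 8 lists after adjustment, and 1 had a raw p under 0.05. The smallest p that 4 against 4 allows is 0.0286, so no list could pass unless several stood there together. The count of 0 was thus nearly fixed by the design, and nothing is concluded from it. The part of glial transcripts in the levels of Gfap, Socs3 and Ednrb was not tested.

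**Figure D3:**
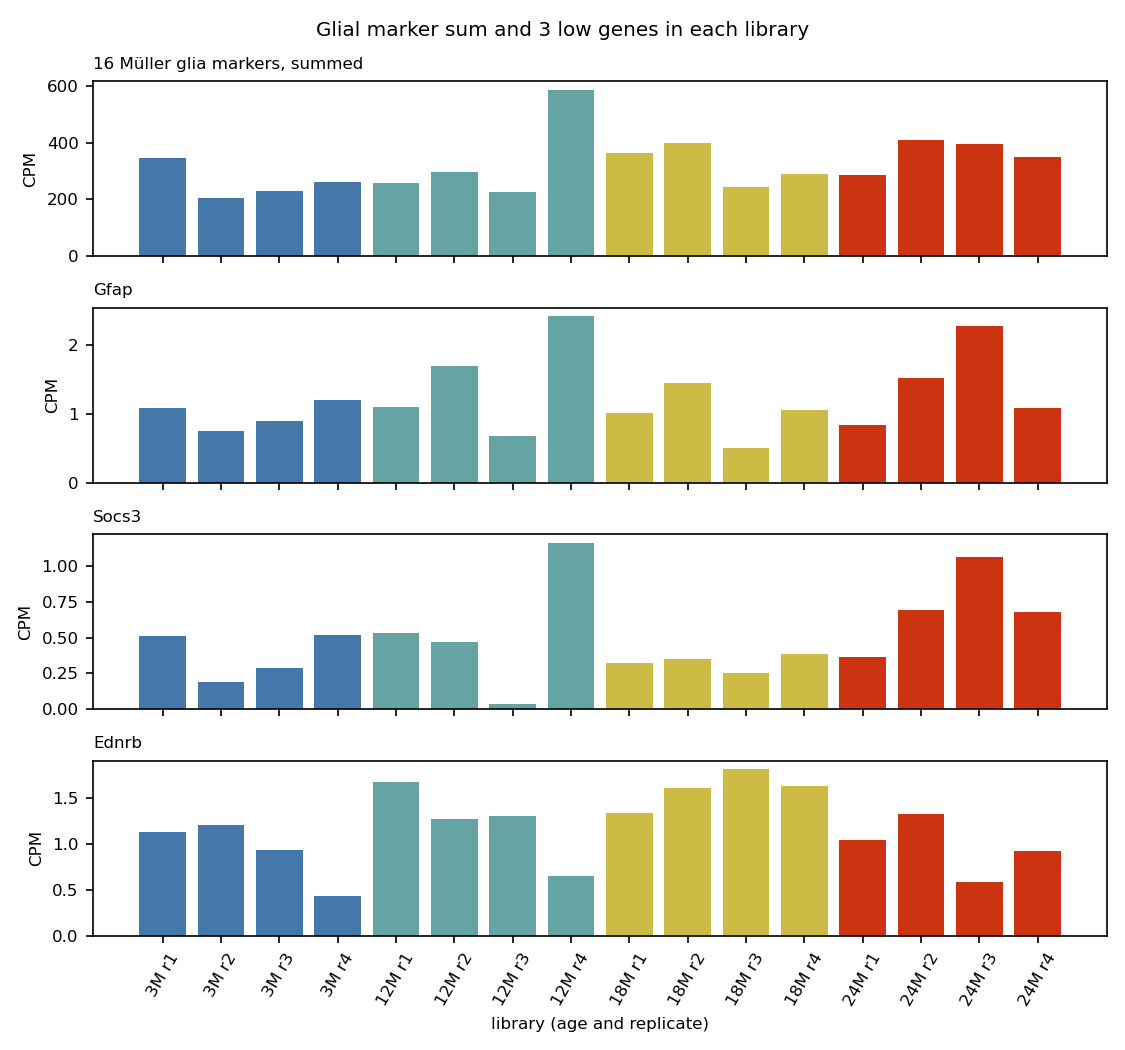
Summed CPM of 16 Müller glia markers and CPM of Gfap, Socs3 and Ednrb (vertical axes, from 0) in each of the 16 libraries, named by age and replicate number. 12M replicate 4 has the highest bar for the markers (585 CPM), Gfap (2.42 CPM) and Socs3 (1.16 CPM) but a low Ednrb bar (0.656 CPM).

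Other genes of these pathways were read from 9 lists chosen by function, which hold 106 different genes besides the set. Of these 41 passed the filter. At 24M against 3M edgeR called 0 higher and 3 lower, beside 2.65% higher and 1.60% lower among all genes tested. DESeq2 called 1 higher, Tyk2, and the same 3 lower, beside 3.56% higher and 2.78% lower among all genes tested. At an unadjusted p under 0.05, 3 were higher and 6 lower, beside 7.31% higher and 6.69% lower among all genes tested. The median log2 fold change of the 41 was 0.01, as over all genes tested (0.01). At 18M and at 12M edgeR called 0 higher and 1 lower, Spry2, and at an unadjusted p under 0.05 there were 3 higher and 4 lower at 18M, beside 6.58% and 5.82% of all genes tested, and 0 higher and 4 lower at 12M, beside 4.75% and 4.39%.

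**Figure D4:**
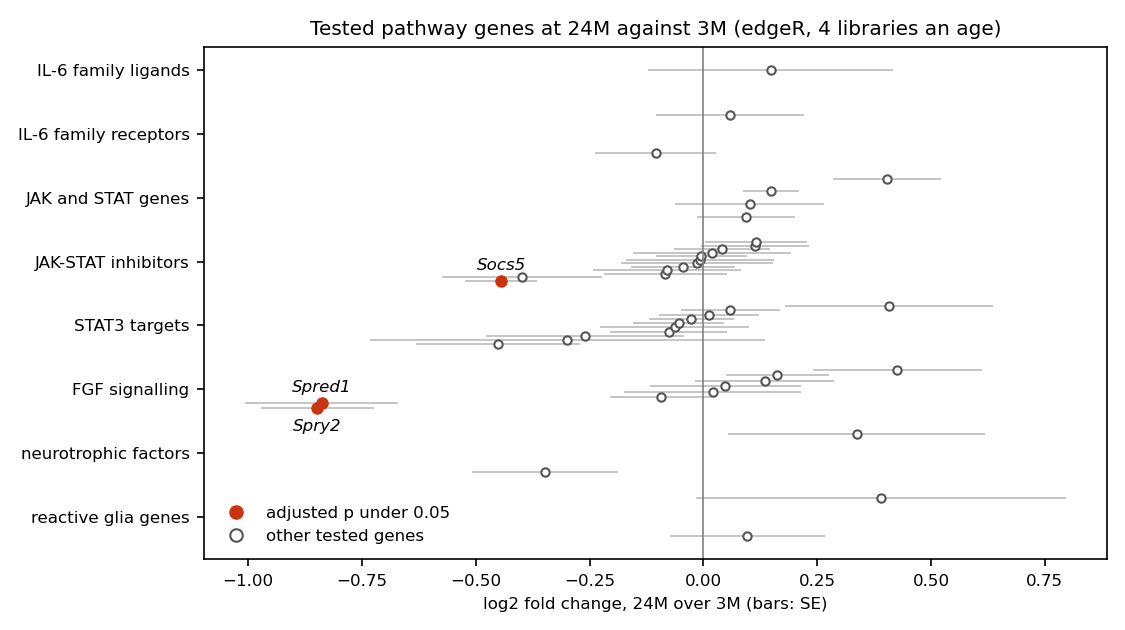
Log2 fold change at 24M over 3M (horizontal axis, bars for the SE) of the tested genes of 8 pathway lists (rows), with 4 libraries an age, filled red where the adjusted p is under 0.05. The red points are Socs5 at -0.44 and Spry2 and Spred1 at -0.85 and -0.84, and no red point lies to the right of 0.

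The FGF list gave 2 of the 3 genes that fell. Spry2 (Sprouty2), a feedback inhibitor of growth factor receptors whose transcription FGF signalling induces, had 48.4, 51.8, 53.0 and 45.3 CPM at 3M, 33.8, 31.7, 30.6 and 36.3 CPM at 12M, 39.2, 35.9, 28.6 and 35.9 CPM at 18M, and 22.6, 28.1, 34.7 and 24.9 CPM at 24M. Every library of the later ages lay below every 3M library. It fell to 27.6 ± 5.28 CPM at 24M, against 49.6 ± 3.51 CPM at 3M (SD, n = 4 each), and the log2 fold change was -0.85 with an SE of 0.12 (edgeR adjusted p = 0.000433). The log2 fold change was -0.51 ± 0.12 at 18M (edgeR adjusted p = 0.0374) and -0.59 ± 0.12 at 12M (edgeR adjusted p = 0.0222). The calls at 18M and 12M were lost when some single libraries were left out, with an edgeR adjusted p of up to 0.127 at 18M and 0.102 at 12M, while the call at 24M was kept without each library in turn.

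Spred1, which holds back the same Ras-MAPK route, had 24.8, 25.9, 21.2 and 29.7 CPM at 3M, 12.9, 21.1, 14.1 and 20.6 CPM at 12M, 15.96, 15.4, 16.7 and 17.1 CPM at 18M, and 12.3, 18.1, 11.9 and 14.6 CPM at 24M. No later library reached the 3M range. It fell to 14.2 ± 2.83 CPM at 24M, against 25.4 ± 3.51 CPM at 3M (SD, n = 4 each), or -0.84 on the log2 scale with an SE of 0.17 (edgeR adjusted p = 0.00669). At 18M its adjusted p was 0.0557 by edgeR, while DESeq2 called it there. Etv5, a transcription factor induced by FGF signalling, was below the filter and was singled out after its values were seen. It had 0.845 to 2.46 CPM at 24M and 3.10 to 5.66 CPM at 3M, with no overlap. The other FGF-induced genes of the list below the filter, Dusp6, Etv1, Etv4, Spry1 and Spry4, overlapped 3M at each later age. Among them Dusp6, a phosphatase of ERK, had 0.985 ± 0.553 CPM at 24M and 0.739 ± 0.495 CPM at 3M, and Etv4, a relative of Etv5, had 0.438 ± 0.130 CPM at 24M and 0.387 ± 0.140 CPM at 3M (SD, n = 4 each). The other 6 tested genes of the list did not pass, among them Sos1, the exchange factor that loads Ras, with 51.7 ± 13.1 CPM at 24M and 50.9 ± 7.02 CPM at 3M (SD, n = 4 each).

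**Figure D5:**
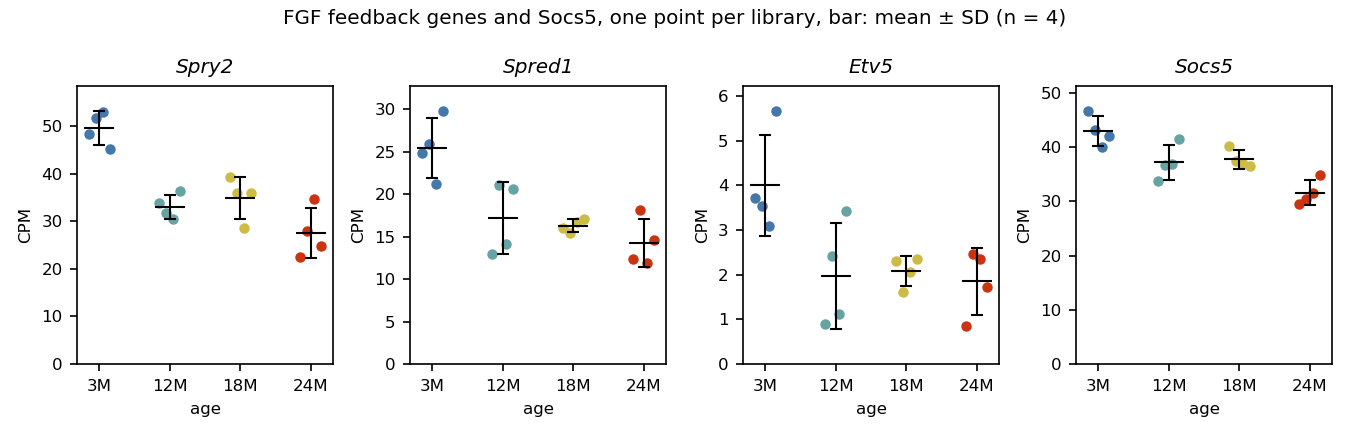
CPM of Spry2, Spred1, Etv5 and Socs5 (vertical axes, from 0) at 3M, 12M, 18M and 24M, with 1 point per library and bars for the mean ± SD of 4 libraries. For Spry2 the 3M points lie at 45.3 CPM or more and the 24M points at 34.7 CPM or less, and Etv5 stays under 6 CPM.

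The third gene that fell was Socs5, a suppressor of cytokine signalling related to Socs3. It had 46.6, 43.2, 40.1 and 42.1 CPM at 3M, 33.7, 36.7, 36.9 and 41.6 CPM at 12M, 40.3, 37.5, 36.8 and 36.5 CPM at 18M, and 29.6, 30.4, 31.5 and 34.9 CPM at 24M. The 24M libraries lay below all 3M libraries, the 12M libraries overlapped both ages, and of the 18M libraries 1 reached the 3M range and none the 24M range. It fell to 31.6 ± 2.33 CPM at 24M, against 43.0 ± 2.75 CPM at 3M (SD, n = 4 each), or -0.44 on the log2 scale with an SE of 0.08 (edgeR adjusted p = 0.00236). The other 11 tested inhibitors of JAK and STAT did not pass, and the list's median log2 fold change was -0.01.

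The remaining lists held no called gene at 24M, 18M or 12M by edgeR. Of 9 other JAK and STAT genes 4 were tested, with a median log2 fold change of 0.13 at 24M over 3M. Jak2, a kinase related to Jak1, had 45.9 ± 10.99 CPM at 24M and 42.7 ± 3.76 CPM at 3M (SD, n = 4 each, edgeR adjusted p = 0.877). Tyk2, which DESeq2 called higher at 24M, had 18.4 ± 3.34 CPM at 24M and 13.9 ± 1.15 CPM at 3M (SD, n = 4 each). Its log2 fold change was 0.40 ± 0.12 (SE, edgeR adjusted p = 0.078), and the libraries of the 2 ages overlapped. Lif, the ligand of the receptor pair, was the single tested gene of 9 IL-6 family ligands, with 5.19, 4.68, 2.32 and 4.25 CPM at 24M and 4.56, 3.55, 3.71 and 2.98 CPM at 3M, which overlapped. Of 5 further receptors of the family, Il11ra1 had 17.7 ± 3.404 CPM at 24M and 19.0 ± 1.27 CPM at 3M, and Il6ra had 11.2 ± 0.990 CPM at 24M and 10.7 ± 0.839 CPM at 3M (SD, n = 4 each).

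Of 20 genes that STAT3 is known to induce, 10 were tested, with a median log2 fold change of -0.06 at 24M over 3M, against 0.01 over all genes tested. They ran from -0.45 for Nfil3 to 0.41 for Junb, neither of them called by edgeR. Hif1a, the oxygen-sensing transcription factor, had 636 ± 129 CPM at 24M and 664 ± 122 CPM at 3M. The immediate early gene Fos had 125 ± 77.1 CPM at 24M and 154 ± 18.5 CPM at 3M (SD, n = 4 each). Of 9 neurotrophic factors 2 were tested: Vegfb had 8.77 ± 1.78 CPM at 24M and 11.2 ± 1.12 CPM at 3M, and Ptn had 4.68 ± 0.670 CPM at 24M and 3.70 ± 1.63 CPM at 3M (SD, n = 4 each).

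Genes whose levels ran most like Edn2 across the 16 libraries were ranked by Pearson's r on log2 CPM over 10285 protein-coding genes, as a description that shares the libraries and their ages. The first 5 were Myo5b (r = 0.969), a myosin motor of membrane traffic, Gnb3 (r = 0.881), a G protein beta subunit of cones, Jup (r = 0.856), a junction protein, Zfp703 (r = 0.832) and Etv6 (r = 0.823). Myo5b had 15.2, 14.7, 18.9 and 17.7 CPM at 24M and 10.6, 9.92, 8.23 and 7.82 CPM at 3M, so the pair of low 3M libraries and the high 24M replicate 3 of Edn2 recurred in it. For Stat3 the first 5 were Gnb3 (r = 0.923), Snph (r = 0.913), Ascc2 (r = 0.910), Lad1 (r = 0.906) and Lrp4 (r = 0.902). By Spearman's rho Gnb3 stood first for Edn2 (rho = 0.806), and for Stat3 it stood at rank 46. Gnb3 was called higher at 24M by edgeR (adjusted p = 0.00232) and had 31.9 ± 7.63 CPM at 24M and 16.3 ± 1.34 CPM at 3M (SD, n = 4 each). It was ranked here by likeness to genes chosen with results of these ages known, so nothing is read from that call. Between Edn2 and Stat3 themselves r was 0.803 and rho 0.55, while Jak1 gave r of 0.484 with Edn2 and 0.346 with Stat3. All of the genes ranked here had their top 24M value in 24M replicate 3, as Edn2 and Stat3 did. Gnb3 had 42.65 CPM there and at most 30.28 CPM in the other 24M libraries, while Jak1 was at its lowest 24M value there. These r and rho values include that library, and its weight in them was not tested.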

How the data were processed

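Sorted rods of 4 ages were profiled by RNA sequencing. The authors deposited estimated counts per transcript for 16 libraries, a gene table with CPM signal, a normalized CPM signal table of 11826 genes in 13 libraries, and a comparison table that holds, per the file headers, log2 differences, an F statistic as a score, and p-values. In the submitters' processing notes the tools are kallisto (0.42.5), edgeR (3.13.9) and limma (3.32.2), without roles, and the build is GRCm38.p4. No label says why 3 libraries are absent from the normalized table.

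Here 111896 of 113468 transcripts were matched by identifier to GENCODE M21, leaving 0.730% to 1.08% of counts unmatched, and the sums over 45038 genes were rounded. The 12177 genes that reached 5 CPM in 4 or more libraries were fitted in edgeR 4.0.16, TMM-scaled, with 1 mean for each age, by the quasi-likelihood test with Benjamini-Hochberg adjustment over all genes tested, called under 0.05. Positions are those of GRCm38. Isoform shares and marker sums were compared by exact permutation in scipy 1.17.1. Values are mean ± SD unless an SE is named, and fold changes set the later age over 3M.

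The 9 genes, the lists and the rule for named genes were chosen with earlier results of these data known. The rule takes from each list the genes called, up to 4 by smallest p, otherwise the 2 with the highest mean CPM, and the 5 genes most like Edn2 or Stat3. A gene that the rule names is not reported here. Alternatives were DESeq2 1.42.0, its size factors, a minimum of 1 CPM, no filter, limma 3.58.1 on the authors' gene CPM with pseudocounts of 0.5 and 2, only the 2 ages compared, a replicate block, the length slope of each library as a covariate, each library left out in turn and, chosen after seeing the data, the 13 libraries of the normalized table.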

Additional observations from a re-analysis of the deposited data

Results flagged for a closer look

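Within groups of 4 libraries, 7 of 128 groups of values examined had a library whose gap to the nearest other exceeded the 95% limit for a single outlying value, and chance gives about 1 in 20. 12M replicate 4 was the lowest of its age for Lifr, at 148.4 CPM beside 193.1 to 196.0 CPM in the others. The same library was lowest for the astrocyte marker sum, at 253.4 CPM beside 324.4 to 327.2 CPM, and highest for the rod marker sum, at 47274.7 CPM beside 36312.2 to 37430.7 CPM. 18M replicate 3 was the highest of its age for the astrocyte marker sum, at 312.3 CPM beside 290.7 to 293.6 CPM. 3M replicate 4 was the lowest for the microglia marker sum, at 13.96 CPM beside 15.24 to 15.36 CPM. It was also the lowest for the share of Stat3-202, at 26.1% beside 30.08% to 30.19%. Ednrb-201 held 1.525% of Ednrb estimated counts in 18M replicate 4 and 100% in the other 3 libraries of 18M, so in that library nearly all counts were placed on other transcripts of the gene.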

How the results depend on the processing

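Depth limits Ednrb, Socs3 and Gfap, which rest on 29 to 142 counts summed over an age. The count of genes called at 24M against 3M was 518. It was 1394 with the length slope as a covariate and 2880 with the 13 libraries that the authors normalized. At 18M it was 322, against 528 with DESeq2, 663 with the length slope, 492 with only the 2 ages compared and 724 in the 13 libraries. At 12M it was 169, against 313 with DESeq2, 106 with only the 2 ages compared and 4652 in the 13 libraries (2368 higher and 2284 lower, against 119 and 50). Leaving out single libraries gave 375 to 725 calls at 24M, 218 to 514 at 18M and 108 to 533 at 12M. Leaving out 12M replicate 4 gave the 514 and the 533, leaving out 3M replicate 3 gave 112 at 12M, and leaving out 12M replicate 3 gave the 108. The cause was not tested.

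Among the set, the log2 fold change of Edn2 at 24M was 1.55 to 2.07 over the libraries left out and 1.27 to 1.95 under the 10 other settings. These ranges describe the values that chose the set and are no support for them. Stat3 at 24M was not called with no filter (0.37, adjusted p = 0.0846), on the authors' gene CPM with pseudocounts of 0.5 (0.34, adjusted p = 0.118) and 2 (0.33, adjusted p = 0.118), or with only the 2 ages (0.37, adjusted p = 0.0641). It was called without each library in turn, at 0.32 to 0.42. Jak1 at 24M was not called with only the 2 ages (0.36, adjusted p = 0.0775), and was called without each library, at 0.33 to 0.44. Il6st at 24M was called without 24M replicate 3 (0.26, adjusted p = 0.0402) and in the 13 libraries (0.26, adjusted p = 0.0123). Those fits called 641 and 2880 of the 12177 genes tested at 24M. The range of Il6st without single libraries was 0.18 to 0.26. Jak1 at 18M was called with DESeq2 (adjusted p = 0.00417), the length slope (0.0328), only the 2 ages (0.0455) and the 13 libraries (0.00993), and without 12M replicate 4 (0.0485) or 24M replicate 3 (0.0126). At 12M it was called with DESeq2 (0.00214), the 13 libraries (0.00443) and without 24M replicate 3 (0.0146). In the 13 libraries Lifr (0.0167) and Fgf2 (0.0159) were called at 12M, beside 4652 of the 12177 genes tested. With the length slope the 12M log2 fold change of Fgf2 was -0.03. Spry2, Spred1 and Socs5 at 24M were called in all 16 fits without a library and all 10 other settings. At 18M Spry2 was not called without replicates 1, 2 or 3 of 3M, 1 of 12M, 2, 3 or 4 of 18M, or 2 of 24M (adjusted p = 0.0521 to 0.127), with no filter (0.0645) or on the authors' gene CPM (0.0501 and 0.0527). At 12M it was not called without replicates 2 or 3 of 3M or 1, 2 or 3 of 12M (adjusted p = 0.0625 to 0.102). The astrocyte marker sum differed by -43.8 CPM between 24M and 3M, and by -4.18 CPM on the authors' gene CPM. Among the genes named here, no value called in the main edgeR fit of 16 libraries changed sign. Lifr and Fgf2 at 12M, called in the 13 libraries, fell to -0.0186 and -0.026 under other settings.

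Replicate numbers do not pair the samples: same-numbered libraries correlated at -0.744 to 0.726 over 24 pairs, with a median of 0.06, and 4 of 16 libraries correlated best with their own number. With a replicate block there were 444 calls at 24M, 269 at 18M and 136 at 12M, and the 24M calls of the set stayed, while Spry2 was not called at 18M (adjusted p = 0.0991) or at 12M (adjusted p = 0.0755).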
